A study of Felis catus with 6 samples.

Results

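The genes described here encode proteins of the extracellular matrix, and 9 were taken by name from the 633 genes of the deposited table. Of these, 5 belong to the basement membrane (LAMB1, LAMC1, COL4A3, COL4A4 and PXDN), and 4 to the interstitial matrix or to the proteins that sit in it (COL12A1, FBN1, COL6A1 and SPP1). All 9 were found, each in 1 row. RNA-seq of polyA RNA was run on 2 groups of 3 libraries from the feline kidney cell line PETCC2610. Both groups received DOX, an agent that the series text says was used to induce senescence and whose abbreviation the labels leave unexplained, and 1 group also received peptide E, which, going by the series title, comes from a fermentation by Bifidobacterium adolescentis. Doses, times and culture passages are not given in the labels, and cells without DOX were not analysed here, so the values before senescence are unknown. The 3 libraries of a group are called biological replicates in the series text, but how far the cultures were separate is not told, and the p-values measure only the spread between libraries.

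The basement membrane is a thin sheet under epithelial cells. Laminin heterotrimers, made of an alpha, a beta and a gamma chain, and triple helices of type IV collagen form its polymer networks, and peroxidasin crosslinks the collagen. In the kidney glomerulus the mature network is built from the alpha 3, alpha 4 and alpha 5 chains of type IV collagen. The interstitial matrix between tubules instead holds fibrillar collagens with associated proteins such as collagen XII, beaded filaments of collagen VI and microfibrils of fibrillin. Osteopontin, the product of SPP1, is a soluble phosphoprotein that binds integrins and is made by tubular epithelium.

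The deposited table lists only genes that its authors marked as differing between these 6 libraries, with a fold change of at least 1.5 on their own scale and an unadjusted p of at most 0.0498. Every member was therefore bound to differ, and what the data add is its level, its size of change, its spread and its relation to the other members. Values are the authors' normalized expression values, called expression values below. Whether they are scaled for transcript length is not stated, so levels of different genes are not compared as amounts of RNA. Depth is unknown; listed genes summed to 25082 to 39465 per library. Of the 499 listed genes tested with limma, 71.1% had a Benjamini-Hochberg adjusted p under 0.05 (47.5% higher with peptide E and 23.6% lower), and the groups did not overlap in 76.1% of all listed genes. These shares depend on single libraries. The 355 calls (118 lower) fell to 173 (37 lower) without peptide E replicate 2 and 227 (40 lower) without DOX replicate 3. They fell to 243 (49 lower), 293 (84 lower) and 306 (86 lower) without DOX replicate 1, peptide E replicate 3 and DOX replicate 2. Without peptide E replicate 1 they rose to 412 (173 lower). They also differ by direction, with 97.9% of tested genes listed higher passing and 45.9% of those listed lower.

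All 5 basement membrane genes rose with peptide E, as did the interstitial genes COL12A1 and FBN1, while SPP1 fell and COL6A1 was near 0 throughout. Group means of the 7 genes that rose were 1.85 to 2.17 times those with DOX alone. In limma, 8 members could be tested and all 8 passed the threshold. Of these 7 were listed higher, where 97.9% of tested genes pass, so their count is near that of any such genes, and 1 was listed lower, where 45.9% pass. COL4A3 entered the test only because its mean was above 1 with peptide E. In the table, 5 basement membrane members are listed higher and 0 lower, and of the other 4 members 2 are listed higher (COL12A1 and FBN1) and 2 lower (SPP1 and COL6A1), directions on which the authors' selection already rests. The median limma log2 fold change was 0.83 over the 5 basement membrane genes, beside 0.89 in FBN1 and 0.99 in COL12A1. The median over the 242 tested genes listed higher was 0.74. These are on the log2(value + 1) scale, which understates changes of low values, so they do not show a rise above that of other genes. Without the added 1, log2 ratios to the DOX mean in peptide E replicates 1, 2 and 3 had medians of 0.54, 1.01 and 1.30 over those 242 genes. The 5 basement membrane genes were at 0.28 to 0.64, 0.84 to 1.03 and 1.24 to 1.39.

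**Figure D1:**
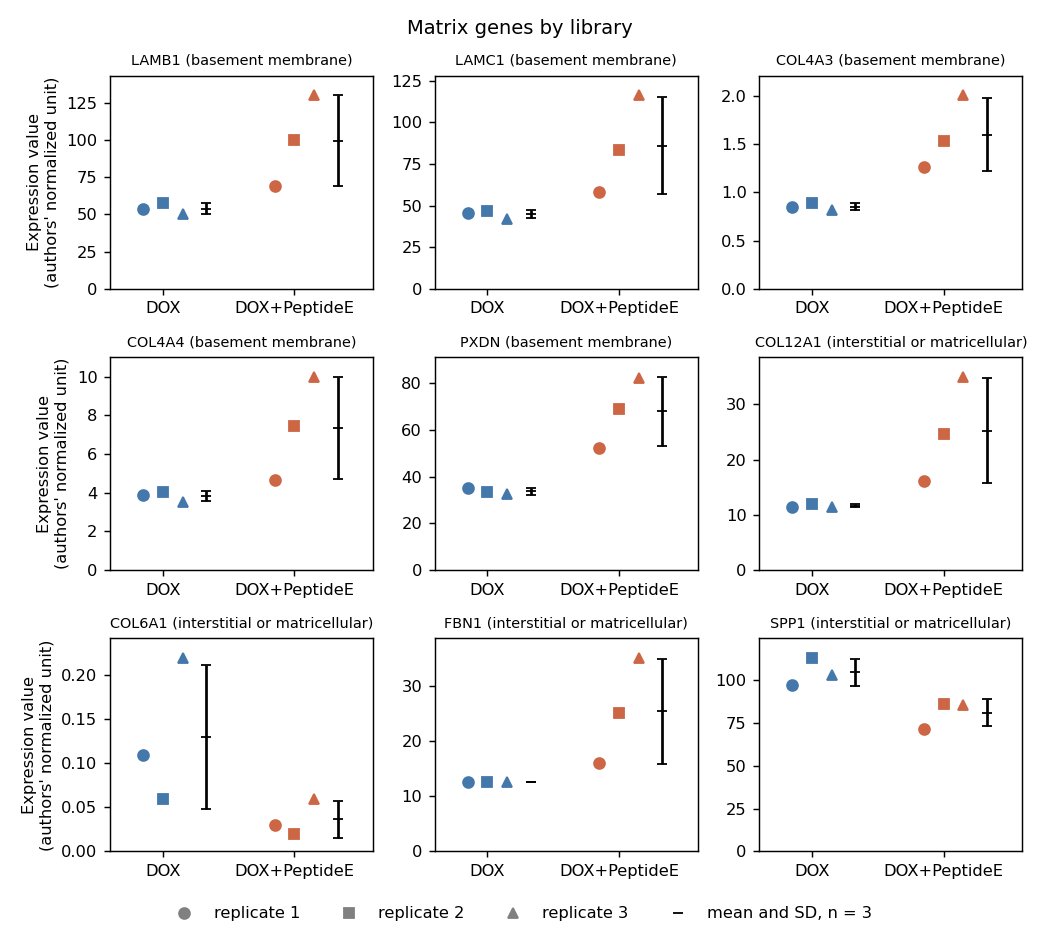
Expression value (vertical axis, the authors' normalized unit, linear from 0) of each of the 9 genes in each library, with DOX in blue and DOX+PeptideE in orange, marker shapes for replicates and black bars for the mean and SD of 3 libraries. In the 7 genes that rose the DOX libraries lie close together and the peptide E libraries spread upwards, while SPP1 is lower with peptide E and COL6A1 does not exceed 0.22.

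LAMB1 and LAMC1 encode the beta 1 and gamma 1 chains, which are shared by many laminins. LAMB1 was at 53.8, 57.6 and 50.4 in the DOX libraries, against 69.1, 99.9 and 130 in those with peptide E (replicates 1, 2 and 3 in each group). The peptide E libraries all lay above the DOX libraries, with the nearest peptide E library 1.20 times the highest DOX library. The means were 53.9 ± 3.63 and 99.7 ± 30.5 (SD, n = 3 each), and limma put the log2 fold change at 0.83 (standard error 0.20, adjusted p = 0.00752). LAMC1 was at 45.6, 46.8 and 42.3 with DOX and at 58.2, 83.8 and 116 with peptide E. Its groups were apart as well, and limma gave a log2 fold change of 0.87 (standard error 0.21, adjusted p = 0.00752). No laminin alpha chain was among the listed genes. By mean expression value over all 6 libraries, LAMB1, LAMC1 and PXDN ranked 1, 2 and 3 among the 293 genes listed higher. As scaling for transcript length is unknown, this is a rank of the deposited values and not of RNA amounts.

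Group means differed 1.85-fold for LAMB1 and 1.92-fold for LAMC1. The ratio of LAMB1 to LAMC1 was 1.18, 1.23 and 1.19 with DOX and 1.19, 1.19 and 1.12 with peptide E. These ranges overlap, and the log2 ratio changed by -0.04 (2-sided exact permutation test, p = 0.5, adjusted p = 0.667 over the 4 pairs of genes compared). The design of 3 against 3 libraries allows no exact p below 0.1, so no difference of any size could pass at 0.05 in these ratios.

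COL4A3 and COL4A4 encode the alpha 3 and alpha 4 chains of type IV collagen, which assemble together with the alpha 5 chain. They are neighbours in RefSeq's gene annotation of assembly F.catus_Fca126_mat1.0, with 0 protein-coding genes between them. COL4A4 was at 3.87, 4.04 and 3.54 with DOX and at 4.65, 7.43 and 9.97 with peptide E. Peptide E replicate 1 was only 1.15 times the highest DOX library, the narrowest gap among the 7 genes that rose. Its log2 fold change in limma was 0.74 (standard error 0.23, adjusted p = 0.0145). Without peptide E replicate 2 the fold change was 0.71 and the call was lost (limma adjusted p = 0.0606, in a range of 0.000301 to 0.0606 over 13 alternatives), and with a pseudocount of 5 it was 0.46.

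COL4A3 had much smaller values, at 0.85, 0.89 and 0.82 with DOX and at 1.26, 1.53 and 2.01 with peptide E. The lowest peptide E library was 1.42 times the highest DOX library. Its group means differed 1.87-fold, close to the 1.93-fold of COL4A4. On the log2(value + 1) scale, which understates changes of low values, limma gave it 0.48 (standard error 0.16, adjusted p = 0.0198). The fold change was 0.81 with a pseudocount of 0.1 and 0.17 with a pseudocount of 5, so its rank of 229 from the highest of 499, against 121 for COL4A4, depends on that choice. Its call was lost in 4 of 6 fits that left out a library. These were the fits without DOX replicate 1 (0.48), DOX replicate 3 (0.47), peptide E replicate 2 (0.49) or peptide E replicate 3 (0.37), where the limma adjusted p was 0.0604, 0.0656, 0.0542 and 0.0692. Over 13 alternatives the adjusted p ranged from 0.00317 to 0.155. The authors' deposited table gives COL4A3 an adjusted p of 0.0836, whereas those of the other 4 basement membrane genes in the authors' deposited table were under 0.05.

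The ratio of COL4A3 to COL4A4 was 0.22, 0.22 and 0.232 with DOX and 0.271, 0.206 and 0.202 with peptide E. Peptide E replicate 1 lay above all DOX libraries and the other peptide E libraries below them, so the mean log2 ratio moved by 0.0018 (2-sided exact permutation test, p = 1.0). Its SD over libraries was 0.04 with DOX and 0.24 with peptide E. Left-out libraries moved this change between -0.14 and 0.078, and with 1 added to each value it was -0.26. The added 1 understates the rise of COL4A3, which has the lower values, more than that of COL4A4.

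PXDN encodes peroxidasin, the peroxidase that forms the sulfilimine crosslink between type IV collagen molecules. It was at 35.1, 33.5 and 32.4 with DOX and at 52.3, 68.9 and 82.1 with peptide E. Its lowest peptide E library was 1.49 times its highest DOX library, the widest gap among the 7 genes that rose. In limma the log2 fold change reached 0.97 (standard error 0.17, adjusted p = 0.0051), rank 11 from the highest of 499. That rank is on the log2(value + 1) scale, which understates changes in genes of low value. Without the added 1, its log2 ratios to the DOX mean were 0.64, 1.03 and 1.29 in peptide E replicates 1, 2 and 3. The medians over tested genes listed higher were 0.54, 1.01 and 1.30. PXDN also had the smallest spread of the 7 genes that rose over the peptide E libraries, with a coefficient of variation of 22%, against 23.7% to 37.6% in the others. The median over the 242 tested genes listed higher was 26.7%.

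Among interstitial genes, COL12A1 encodes collagen XII, which associates with fibrils of collagen I, and FBN1 encodes fibrillin-1, the backbone of microfibrils that also store latent TGF-beta. COL12A1 was at 11.5, 12.0 and 11.5 with DOX and at 16.1, 24.6 and 35.1 with peptide E. FBN1 was at 12.6 in every library with DOX alone, against 16.1, 25.0 and 35.0 with peptide E. In both genes the peptide E libraries lay above the DOX libraries, with wider spacing between them than in PXDN. The coefficient of variation was 2.41% with DOX and 37.6% with peptide E in COL12A1, and 0.242% and 37.4% in FBN1. Its medians over the 242 tested genes listed higher were 9.32% with DOX and 26.7% with peptide E, so a wider spread with peptide E was not particular to these genes. In limma COL12A1 rose by 0.99 on the log2 scale (standard error 0.23, adjusted p = 0.00752) and FBN1 by 0.89 (standard error 0.23, adjusted p = 0.00856).

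The ratio of COL12A1 to FBN1 was 0.911, 0.948 and 0.911 with DOX and 0.998, 0.986 and 1.0 with peptide E. All peptide E ratios were above all DOX ratios. The mean log2 ratio was higher by 0.11, and the 2-sided exact permutation test gave p = 0.1, the smallest it can give, with an adjusted p of 0.2 over 4 pairs.

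COL6A1 encodes the alpha 1 chain of collagen VI. It was at 0.11, 0.06 and 0.22 with DOX and at 0.03, 0.02 and 0.06 with peptide E, in a table that gives 2 decimals. The groups met at 0.06, which was the value of both DOX replicate 2 and peptide E replicate 3. The gene was below the filter on low values, and a 2-sided exact permutation test gave p = 0.2. Tested without the filter, its limma log2 fold change was -0.12 (adjusted p = 0.0742). The authors' deposited table lists it lower with an adjusted p of 1.0, and no direction is claimed here.

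SPP1 was at 97.2, 113 and 103 with DOX and at 71.6, 86.1 and 85.1 with peptide E. The peptide E libraries all lay below the DOX libraries, and replicate 1 was the lowest. The means were 104 ± 7.94 and 81.0 ± 8.08 (SD, n = 3 each), so the mean with peptide E was 0.776 times that with DOX. On the log2 scale limma gave a change of -0.36 (standard error 0.15, adjusted p = 0.0414). This call was kept in 1 of 6 fits that left out a library, the fit without peptide E replicate 3. In the other 5 the limma adjusted p ranged from 0.0615 to 0.127 and the log2 fold change from -0.41 to -0.28. The limma adjusted p over 13 alternatives ranged from 0.00736 to 0.127. The lowest came with the peptide E libraries rescaled to the authors' fold changes, and it was 0.0101 with each library centred on its median. The authors' deposited table gives SPP1 an adjusted p of 1.05e-06, on the authors' own scale.

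The ratio of LAMB1 to SPP1 sets a basement membrane gene against osteopontin within each library. It was 0.553, 0.511 and 0.490 with DOX and 0.965, 1.16 and 1.53 with peptide E. The mean log2 ratio was higher by 1.21 with peptide E. LAMB1 was selected by the authors as higher and SPP1 as lower in these same libraries, so their ratio was bound to be higher, and the value is a description of its size. A ratio within a library is unaffected by how libraries are scaled to each other.

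**Figure D2:**
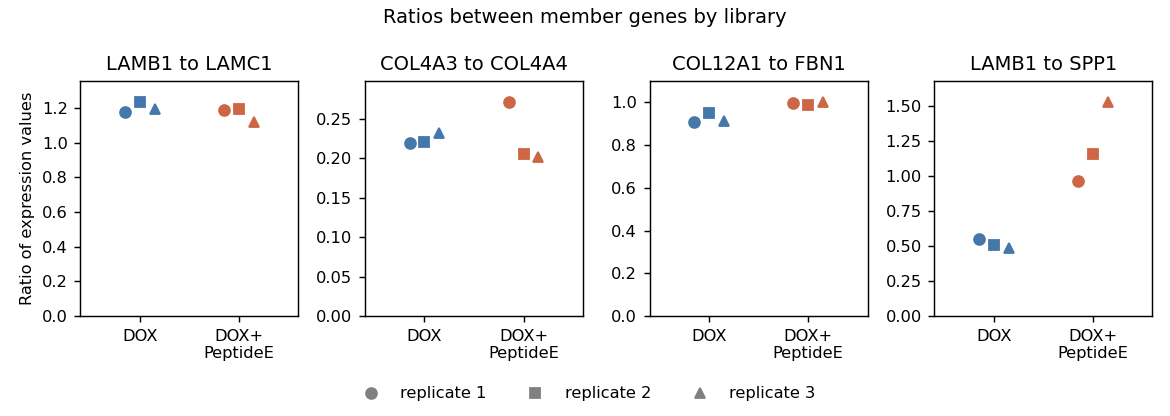
Ratio of expression values of 2 genes within each library (vertical axes, linear from 0), with DOX in blue, DOX+PeptideE in orange and marker shapes for replicates. LAMB1 to LAMC1 overlaps between the groups, COL4A3 to COL4A4 is spread by peptide E replicate 1 at 0.271, COL12A1 to FBN1 differs by 0.11 on the log2 scale, and LAMB1 to SPP1 is at 0.490 to 0.553 with DOX and at 0.965 to 1.53 with peptide E.

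**Figure D3:**
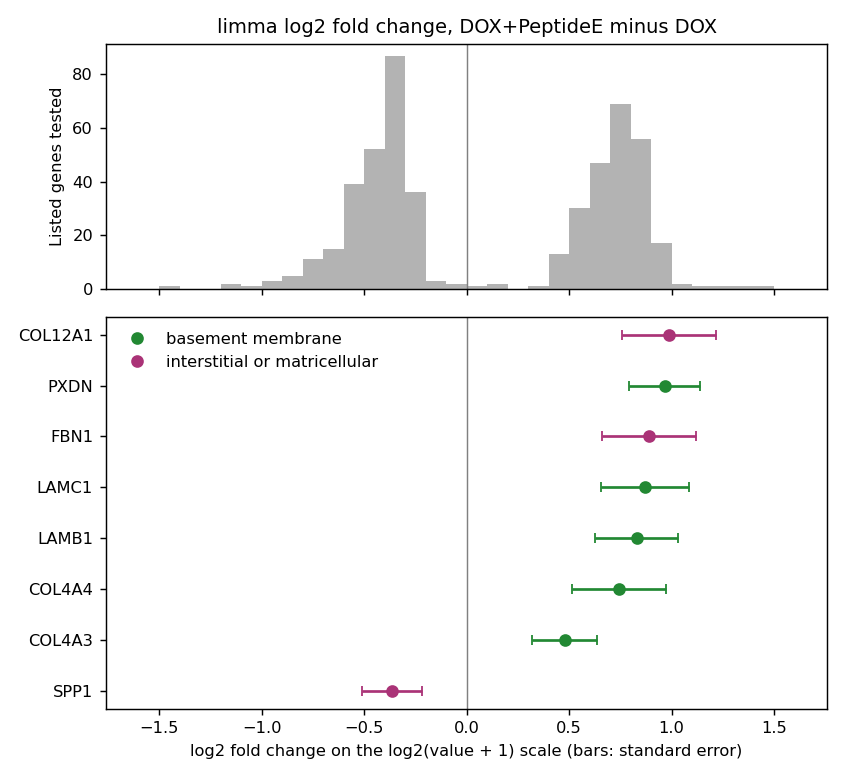
Top, number of the 499 tested listed genes by limma log2 fold change of DOX+PeptideE over DOX; bottom, the same measure for the 8 tested members with bars for the standard error, on the log2(value + 1) scale. The basement membrane genes, in green, lie between 0.48 and 0.97, the interstitial COL12A1 and FBN1 are at 0.99 and 0.89, and SPP1 is at -0.36.

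How large these changes are depends on the scale. Log2 fold changes in the authors' deposited table lie below those computed from its library values. The median shift was 0.27 over the 196 genes whose group means were both at least 5. Such a shift makes rises smaller and falls larger on the authors' scale. In the authors' deposited table LAMB1 has a fold change of 1.50 and COL4A3 of 1.52, just inside the selection limit of 1.5, LAMC1, COL4A4, FBN1 and PXDN have 1.56 to 1.64, and COL12A1 has 1.75. SPP1 has 0.639 in the authors' deposited table. With the peptide E libraries rescaled by that offset, the limma log2 fold change of SPP1 was -0.63 and that of COL4A3 was 0.32, which did not pass (adjusted p = 0.0573). Each library was also centred on its median over the 499 tested genes, which moved the median of all genes tested by -0.30. Those genes were all selected as differing between these groups, so that median is not a neutral reference. After centring, COL4A3 was at 0.18 and did not pass (limma adjusted p = 0.155), and SPP1 was at -0.66. COL4A4, LAMB1, LAMC1 and FBN1 were at 0.44, 0.53, 0.57 and 0.59. Calls over all 499 genes split into 237 higher and 118 lower as deposited, 212 and 243 after rescaling, and 188 and 250 after centring. The 8 tested members kept their signs on each of these scales, and COL6A1 was not fitted on them.

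The peptide E libraries were unlike one another, and the genes that rose shared 1 order. In all 7 of them peptide E replicate 1 was the lowest of the group and replicate 3 the highest. This order was held by 206 of the 242 tested genes listed higher (85.1%), so it is that of the libraries over most such genes. The log2 ratio to the DOX mean in replicate 1 was 0.28 to 0.64 over the 7 genes, with COL4A4 the smallest and PXDN the largest, beside a median of 0.54 over all tested genes listed higher. In replicate 3 it was 1.24 to 1.59, with COL4A3 the smallest and COL12A1 the largest, beside a median of 1.30.

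SPP1 had another order of the peptide E libraries than the medians over genes listed lower. Its log2 ratio to the DOX mean was -0.54 in replicate 1, -0.28 in replicate 2 and -0.29 in replicate 3. Over the 257 tested genes listed lower the medians were -0.42, -0.48 and -0.59. Replicate 1 was the lowest peptide E library in 68 of those 257 genes (26.5%). Replicate 3 was the lowest in most of them (138), though not in all. A part of depth, RNA quality or culture in these library differences was not tested.

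**Figure D4:**
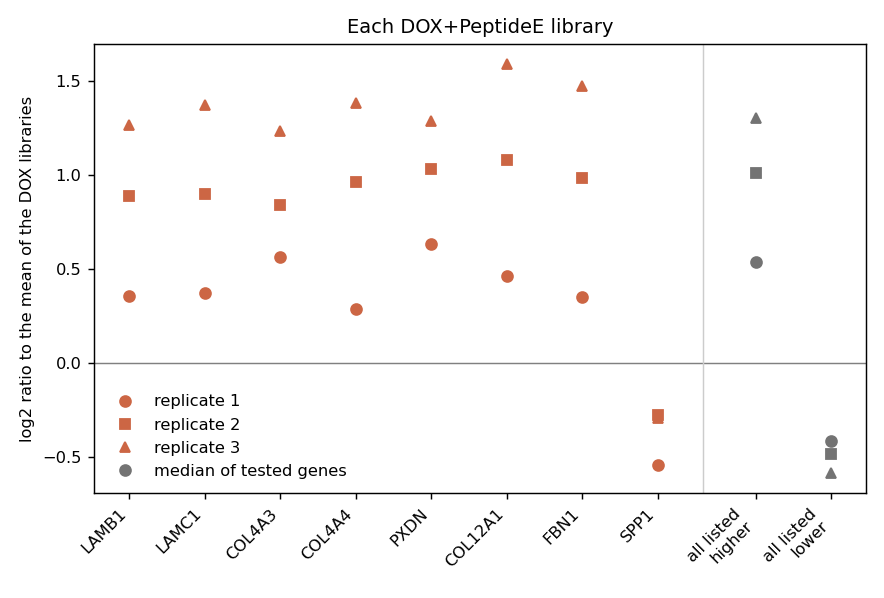
Log2 ratio of the expression value in each DOX+PeptideE library to the mean of the DOX libraries (vertical axis) for 8 members, in orange, and the median over tested genes listed higher or lower, in grey; COL6A1 is left out because its values were near 0. Replicate 1 lies lowest and replicate 3 highest in each of the 7 genes that rose, as do the grey medians of genes listed higher, while SPP1 has its lowest value in replicate 1.

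Likeness was measured as the root mean square difference of log2(value + 1), centred on the DOX mean, over the 6 libraries, against the 491 tested genes that are not members. Because the measure works on this scale, it favours genes of similar level at low values. Closest to LAMB1 was TGOLN2, a protein of the trans-Golgi network (0.02), then GLG1, a Golgi glycoprotein (0.03). LAMC1 was closest to SON, a splicing cofactor (0.03), and GLG1 (0.04). Each laminin chain lay at 0.05 from the other, and 8 listed genes were nearer to LAMB1 than LAMC1 was. The small distance between the chains was thus not particular to them.

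COL4A4 lay nearest to AAK1, a kinase of clathrin adaptors (0.04), and to SMAD7, the inhibitor of TGF-beta receptor signalling (0.05), which went from 5.18 to 9.59. COL4A3 lay nearest to SYNE2, a nuclear envelope protein (0.05), and KMT2C, a histone methyltransferase (0.06), at 0.25 from COL4A4. Nearest to PXDN were MAN2A2, a Golgi mannosidase (0.05), and GRIN3A, a glutamate receptor subunit (0.06). Outside the members, COL12A1 and FBN1 had the same closest genes, HEG1, a transmembrane protein of cell junctions (0.05 and 0.04), and the receptor gene NOTCH2 (0.06 for both). With members included, LAMC1 lay at 0.05 from FBN1, with 1 listed gene nearer, and COL12A1 lay at 0.07 from FBN1, with 5 nearer. SPP1 was closest to AQP1, the water channel of the proximal tubule (0.05), and to TOX2 (0.05).

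Other genes of the matrix were looked up in lists. Of 172 symbols in 5 lists of matrix genes, 10 were in the table, the 9 members and ITGB8. Among 40 basement membrane symbols 5 were listed, all higher and all past the limma threshold, COL4A3 again entering the test only through its peptide E mean, and among 43 of interstitial collagens and fibres 3 were listed, of which 2 passed, both higher. The matricellular list had SPP1 alone of 20 symbols, and none of 41 matrix enzymes and inhibitors was listed. Among all 633 genes 293 are listed higher, and 237 of the 242 tested among them pass. The members were chosen with these results known, so these counts are a description only. ITGB8, 1 of 28 matrix receptors, encodes the beta 8 integrin subunit, which activates latent TGF-beta. It was at 0.35 to 0.45 with DOX and at 0.82 to 0.84 with peptide E, without overlap, below the filter on low values.

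Cell type markers give the setting of these changes. The table held 5 of 17 tubular epithelial markers (KRT7, KRT18, KRT19, AQP1 and HAVCR1), all listed lower, of which the keratins passed the limma threshold. Their summed expression value was 864 to 1100 over the DOX libraries and 580 to 783 over the peptide E libraries. Nearly all of that sum was KRT7 and KRT18, with DOX means of 415 and 589, against 2.60, 2.98 and 1.21 in KRT19, AQP1 and HAVCR1. AQP1 and HAVCR1 did not pass (limma adjusted p = 0.0897 and 0.405). Of 12 fibroblast markers only S100A4 was listed, at 249 to 274 with DOX and 143 to 188 with peptide E. None of the listed markers was at 0 in any library. No marker of podocytes (10 symbols), endothelium (7) or immune cells (7) was listed, and unlisted genes were not analysed here. Whether podocyte genes were expressed beside COL4A3 and COL4A4 could therefore not be checked, and no cell identity is read from COL4A3 and COL4A4. In bulk RNA, fewer cells of a type and less RNA per cell cannot be told apart, and the part of these marker changes in the matrix changes was not tested.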

How the data were processed

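PolyA RNA from 6 libraries of a feline kidney cell line was sequenced in pairs of 150 bp, per the labels' protocols. FastQC 0.11.9 and fastp 0.19.5 are named, per the submitters' processing notes. The aligner, genome build, annotation and strand setting were not given in the sources used here. Each library column of the deposited table holds an expression signal that the authors normalized, with no unit in its header. Other columns of it give the ratio of the authors' comparison as a fold change and as a log2 value, with the authors' p-values before and after adjustment.

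Libraries were grouped by title. Values were transformed as log2(value + 1), and the 499 of 633 listed genes whose higher group mean reached 1 entered a limma fit (version 3.58.1, R 4.3.3) with a variance trend, adjusted by Benjamini-Hochberg over all 499 at 0.05. The limma script was tested on simulated data. Each member and 4 ratios of genes were compared with exact permutation tests. Named were all members, all listed genes of the lists, and the 2 genes most like each tested member. Members and lists were chosen with earlier results of these data known. Alternatives changed the pseudocount, filter, scaling, variance trend, block and libraries used. A planned description of protein length was not run, and sequences were not used here. All 9 symbols were found in the RefSeq gene table, but the authors' build is not known, so no coordinates are given. Unlisted genes of the matrix were not analysed here.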

Additional observations from a re-analysis of the deposited data

How the results depend on the processing

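Over 13 other settings no tested member changed sign in limma, which groups without overlap fix in all settings but the scalings, and 90 of 104 member calls were kept. LAMB1, LAMC1, PXDN, COL12A1 and FBN1 kept theirs in each of them. Without peptide E replicate 2 they passed narrowly, with a limma adjusted p of 0.0403 in PXDN and 0.0417 in the others. The count of members past the threshold was 8, and 5 to 7 with 1 library left out; the 5 came without peptide E replicate 2, where COL4A3, COL4A4 and SPP1 were lost. The count lower with peptide E, 1 as reported, was 0 to 1 with 1 library left out and 0 without the variance trend (SPP1 adjusted p = 0.0596). With the replicate number as a block, it was also 0 (SPP1 adjusted p = 0.0542), and 7 members passed; the cause of these losses was not tested. Replicate numbers were not treated as pairs, since same-numbered libraries deviated together with correlations of 0.34, -0.04 and -0.09 over 499 genes, and only number 1 correlated best with its own number. The change of the log2 ratio of COL4A3 to COL4A4, 0.0018 as reported, lay between -0.14 and 0.078 with 1 library left out. It was -0.26 with 1 added to each value, which understates the rise of the lower COL4A3 values more. The other ratios kept their sign, from -0.06 to -0.01 for LAMB1 to LAMC1, 0.10 to 0.13 for COL12A1 to FBN1 and 1.03 to 1.36 for LAMB1 to SPP1. Depth is unknown, so the counting error behind the low values of COL6A1 and COL4A3 cannot be given.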
